A study of Mus musculus with 12 samples.

Results

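The genes that bring glucose into a heart muscle cell and decide what becomes of its pyruvate were followed in adult cardiomyocytes with and without desmin, the intermediate filament protein of muscle. The group held 10 genes, chosen by symbol, and all 10 were found among the 21493 genes listed for every library and passed the filter on low counts. Poly-A RNA came from cardiomyocytes that had been freed from the hearts of 3-month-old mice with trypsin and collagenase D and harvested at once. The mice were Des+/+ or Des-/-, the deletion being present in every cell of the animal, and were either left at rest (non-swim) or put through swimming exercise (swim). Each of the 4 groups, Des+/+ non-swim, Des+/+ swim, Des-/- non-swim and Des-/- swim, held 3 libraries, 12 in all. A library pooled the cells of several mice, according to the study's methods.

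Glucose enters a cardiomyocyte through Slc2a1 (GLUT1), the basal transporter, and Slc2a4 (GLUT4), the transporter that insulin and contraction bring to the surface. Hexokinases trap it as glucose 6-phosphate, phosphofructokinase commits it to glycolysis, and pyruvate is then either exchanged with lactate by lactate dehydrogenase or burned through the pyruvate dehydrogenase complex. That complex carries the E1 alpha subunit Pdha1 and is switched off by the kinases Pdk2 and Pdk4. The adult heart draws most of its energy from fatty acids, and Pdk4, which rises in fasting and exercise, is known for holding glucose oxidation back when fat is the fuel.

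Within the lactate dehydrogenase pair and the kinase pair one gene moved further than the other in the comparisons that follow. The 250 bases that precede the first listed start of each of these 4 genes are shown, from the RefSeq promoter table of build GRCm38.p6. The hexokinase and transporter pairs parted too, and their promoters are not printed. Promoters were listed for 9 of the 10 genes. Capitals mark matches, on either strand, to the E-box CACGTG, the hypoxia response core ACGTG, which every E-box also holds, the GC box GGGCGG and the nuclear receptor half-site AGGTCA.
Pdk4: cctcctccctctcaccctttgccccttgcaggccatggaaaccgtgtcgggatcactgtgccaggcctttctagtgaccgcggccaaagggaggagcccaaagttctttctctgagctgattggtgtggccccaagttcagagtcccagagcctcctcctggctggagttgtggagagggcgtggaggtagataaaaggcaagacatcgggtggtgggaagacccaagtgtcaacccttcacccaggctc
Pdk2: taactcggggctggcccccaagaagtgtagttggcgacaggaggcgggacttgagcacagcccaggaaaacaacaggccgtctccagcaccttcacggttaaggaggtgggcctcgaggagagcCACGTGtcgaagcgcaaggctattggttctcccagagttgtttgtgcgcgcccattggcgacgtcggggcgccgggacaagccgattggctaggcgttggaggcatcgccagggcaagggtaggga
Ldha: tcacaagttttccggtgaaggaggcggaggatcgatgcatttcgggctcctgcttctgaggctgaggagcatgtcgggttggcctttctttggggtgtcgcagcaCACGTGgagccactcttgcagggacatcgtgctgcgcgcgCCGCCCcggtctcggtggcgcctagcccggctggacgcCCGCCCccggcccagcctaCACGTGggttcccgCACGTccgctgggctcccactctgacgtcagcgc
Ldhb: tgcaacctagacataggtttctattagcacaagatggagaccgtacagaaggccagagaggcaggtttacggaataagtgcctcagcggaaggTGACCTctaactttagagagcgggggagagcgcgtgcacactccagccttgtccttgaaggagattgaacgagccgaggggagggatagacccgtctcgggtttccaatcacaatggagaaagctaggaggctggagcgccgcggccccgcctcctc
The stretches lie at chr6:5496279-5496528 (minus strand) for Pdk4, chr11:95041372-95041621 (minus strand) for Pdk2, chr7:46845554-46845803 (plus strand) for Ldha and chr6:142507958-142508207 (minus strand) for Ldhb. Ldha held 2 E-boxes, starting 145 and 48 bases before the start, 1 further ACGTG core at 34 bases and 2 GC boxes. Pdk2 held 1 E-box, Ldhb 1 half-site, and Pdk4 none of these motifs. The second listed promoters of Ldha and Pdk2, not printed, held none of them either. Among all 32851 listed promoters cut to the same length, 6.02% held an E-box, 16.6% an ACGTG core, 32.7% a GC box and 14.0% a half-site. The forkhead core TGTTTAC, present in 3.17% of them, was found in none of the 4. These matches describe the letters in this window and say nothing of binding.

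Reads assigned to genes ranged from 4320819 to 12072443 per library, and the members' own counts from 78 to 14542. Levels are given as CPM, the read count scaled to the library's total, and where genes are compared with each other as CPM per kb of exon. Des itself lay at 973 to 3647 CPM in the 6 Des+/+ libraries and at 50.3 to 100.5 in the 6 Des-/- libraries, in the direction of the labels. Cardiomyocyte marker RNA differed between the groups. The summed level of 12 cardiomyocyte marker genes was 66819 to 104878 CPM in Des+/+ non-swim, 34857 to 58764 in Des+/+ swim, 7196 to 30934 in Des-/- non-swim and 19047 to 31288 in Des-/- swim libraries. All 12 markers were called lower in Des-/- than in Des+/+ without swimming, with a median log2 difference of -2.13, against 0.04 over all genes tested. The sum of 10 fibroblast markers ran from 3337 to 3920 CPM in Des+/+ non-swim and from 8570 to 40595 in Des-/- non-swim libraries, and that of 10 macrophage markers from 225 to 342 and from 419 to 4273, with the top in replicate 3 each time. After swimming the fibroblast sum was 2364 to 3454 CPM in Des+/+ and 4130 to 14144 in Des-/- libraries, and the macrophage sum 255 to 323 and 229 to 1379. The sum of 12 genes that respond to cell isolation was 1600 to 2552 CPM in the 6 Des+/+ and 3870 to 9252 in the 6 Des-/- libraries. None of these markers was at 0 in all libraries. In such bulk RNA, fewer cells of a type and less RNA per cell cannot be told apart.

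In hearts at rest, 9 of the 10 genes were lower in Des-/- than in Des+/+ cardiomyocytes, each with no overlap between the 3 libraries of either group. Of all genes tested, 32% were called in this comparison, 18% as lower, and 24.9% lay lower without overlap. Pdk4 was the furthest down, at 7.46% of its Des+/+ level, and the exception was Slc2a1. The members' median log2 difference was -2.12, close to the -2.13 of the cardiomyocyte markers. Red blood cell RNA differed as well. The sum of 7 erythroid markers was 180 to 547 CPM in Des+/+ and 1471 to 4586 CPM in Des-/- non-swim libraries, with 5 of 6 tested markers called higher, while that of 8 endothelial markers was 6391 to 7924 and 5491 to 9088 CPM, none called. The part of these cells in the members' differences was not tested.

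**Figure D1:**
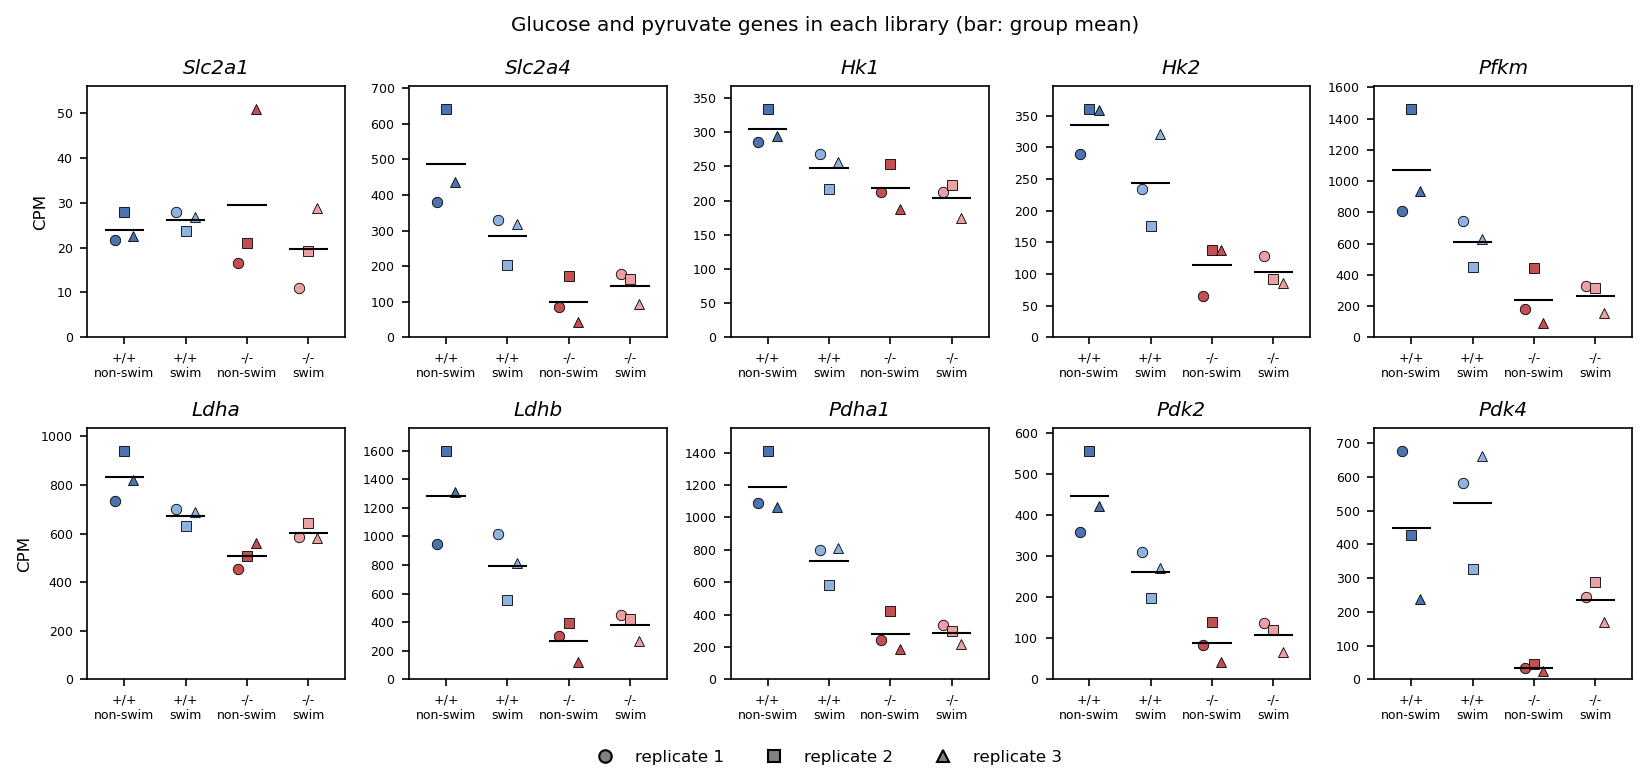
Level of each of the 10 genes in every library, in CPM on an axis from 0, with 3 libraries per group (circle, square and triangle for replicates 1, 2 and 3) and a bar at the group mean. For 9 genes all Des-/- non-swim points lie under all Des+/+ non-swim points, while replicate 3 of Des-/- non-swim carries the highest Slc2a1 value, 50.9 CPM.

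Of the transporters, Slc2a4 (GRCm38 chromosome 11, 69942539 to 69948188) lay at 381, 642 and 438 CPM in Des+/+ non-swim libraries and at 85.9, 173 and 42.3 CPM in Des-/- non-swim libraries. The groups stood well apart, and replicate 3 of Des-/- was the lowest. The log2 difference was -2.28 (SE 0.45, n = 3 per group, edgeR adjusted p = 0.00378), or 20.6% of the Des+/+ level. Slc2a1 (chromosome 4, 119108711 to 119137983) lay at 21.6, 27.8 and 22.6 CPM in Des+/+ and at 16.6, 21.1 and 50.9 CPM in Des-/- non-swim libraries. Its groups overlapped, and the Des-/- value of replicate 3, the library with the highest fibroblast and macrophage sums, was above all others. The log2 difference was 0.30 (95% interval -0.56 to 1.17, adjusted p = 0.591), and without replicate 3 of Des-/- non-swim it was -0.35 (adjusted p = 0.437). Whether other cells contributed to that value was not tested.

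The hexokinases fell unequally. Hk2 (chromosome 6, 82725025 to 82774454), the insulin-responsive form of muscle, lay at 289, 361 and 358 CPM in Des+/+ and at 65.2, 138 and 138 CPM in Des-/- non-swim libraries. The groups were apart, and the log2 difference was -1.56 (SE 0.30, adjusted p = 0.0033). Hk1 (chromosome 10, 62268855 to 62379908), the form most tissues use, lay at 286, 334 and 294 CPM in Des+/+ and at 212, 254 and 188 CPM in Des-/-. These groups were apart by a narrower gap, with a log2 difference of -0.48 (SE 0.16, adjusted p = 0.0357). That call was lost without replicate 1, 2 or 3 of Des+/+ non-swim (adjusted p = 0.0529, 0.114 and 0.0699) and without replicate 1 or 3 of Des-/- non-swim (0.0868 and 0.126). It was also lost with upper-quartile scaling (edgeR adjusted p = 0.0874) and with no filter on low counts (0.0907). The same held for a fit of the compared libraries alone (0.0809) and without both Des-/- replicate 3 libraries (0.139). Pfkm (chromosome 15, 98092589 to 98132451), the muscle phosphofructokinase, lay at 810, 1463 and 935 CPM in Des+/+ and at 182, 443 and 88.7 CPM in Des-/- non-swim libraries. It was at 22.2% of the Des+/+ level, a log2 difference of -2.17 (SE 0.52, adjusted p = 0.00919), and its lowest value was again that of replicate 3.

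The lactate dehydrogenase subunits also parted. Ldhb (chromosome 6, 142490249 to 142507957), the heart subunit, lay at 944, 1598 and 1312 CPM in Des+/+ and at 301, 391 and 121 CPM in Des-/- non-swim libraries, a log2 difference of -2.25 (SE 0.41, adjusted p = 0.00242). Ldha (chromosome 7, 46841475 to 46855627), the subunit of muscles that make lactate, lay at 734, 940.1 and 820.4 CPM in Des+/+ and at 456, 505 and 562 CPM in Des-/-. Its groups did not overlap either, and the log2 difference was -0.71 (SE 0.15, adjusted p = 0.00557). For Ldha replicate 3 was the highest Des-/- library, whereas for Ldhb it was the lowest.

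At the pyruvate switch all 3 genes fell. Pdha1 (chromosome X, 160122209 to 160138413), part of the enzyme itself, lay at 1089, 1411 and 1066 CPM in Des+/+ and at 240.3, 422 and 185 CPM in Des-/- non-swim libraries, a log2 difference of -2.07 (SE 0.30, adjusted p = 0.00108). The inhibitory kinase Pdk2 (chromosome 11, 95026258 to 95041354) lay at 358, 556 and 422 CPM in Des+/+ and at 83.0, 139 and 41.2 CPM in Des-/-, a log2 difference of -2.35 (SE 0.41, adjusted p = 0.00195). Both kept clear of overlap. Pdk4 (chromosome 6, 5483351 to 5496309), the second kinase, lay at 677, 428 and 239 CPM in Des+/+ and at 32.2, 44.8 and 23.4 CPM in Des-/- non-swim libraries. Even the lowest Des+/+ library was far above the highest Des-/- library, and the log2 difference was -3.74 (SE 0.43, adjusted p = 7.74e-04). In each of the 12 fits that left out 1 library, 8 of the 9 calls, all but Hk1, were kept.

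Because the cardiomyocyte markers were as low as most members, the members were also set against them within each library, as reads per 1000 reads of the 12 markers. Slc2a4 was then at 5.70 to 6.12 in Des+/+ non-swim and at 5.32 to 5.88 in Des-/- non-swim libraries, Pfkm at 12.1 to 13.9 and 11.3 to 14.3, and Pdk2 at 5.30 to 5.71 and 4.48 to 5.73. All of these ranges overlapped, as did those of Ldhb, at 14.1 to 17.8 and 12.6 to 18.7. Ldha was at 8.96 to 11.1 in Des+/+ and at 16.3 to 78.1 in Des-/- libraries, Hk1 at 3.19 to 4.27 and 8.20 to 26.1, and Slc2a1 at 0.265 to 0.323 and 0.681 to 7.07. These 3 genes were higher without overlap, with the top value in replicate 3 of Des-/- each time. Most genes rise on this scale, as the fit below shows, and the share of all genes without overlap on it was not counted. Pdk4 was at 3.23 to 10.1 in Des+/+ and 1.45 to 3.25 in Des-/- libraries, ranges that touch, the highest Des-/- library lying just above the lowest Des+/+ library.

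The edgeR fit scaled to these markers moved the median log2 difference of all genes from 0.04 to 2.64. Most genes were thus higher in Des-/- on this scale, so that a higher call there is not particular to the members. In this fit 4 members were called. Slc2a1 (3.29, adjusted p = 5.19e-04), Hk1 (2.05, adjusted p = 7.84e-04) and Ldha (1.98, adjusted p = 0.00174) were higher in Des-/-, and Pdk4 was lower (-1.39, adjusted p = 0.016). Set against the shift of all genes, Slc2a1 lay above it and the other 9 below it. Slc2a4, Pfkm, Ldhb and Pdk2 were between -0.09 and 0.03 on the log2 scale, with adjusted p from 0.836 to 0.945, while Pdha1 was at 0.30 and Hk2 at 1.14, neither of which passed the test. Calls of a lower level in Des-/- thus numbered 9 in the fit to all RNA and 1, that of Pdk4, in the fit scaled to the cardiomyocyte markers.

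**Figure D2:**
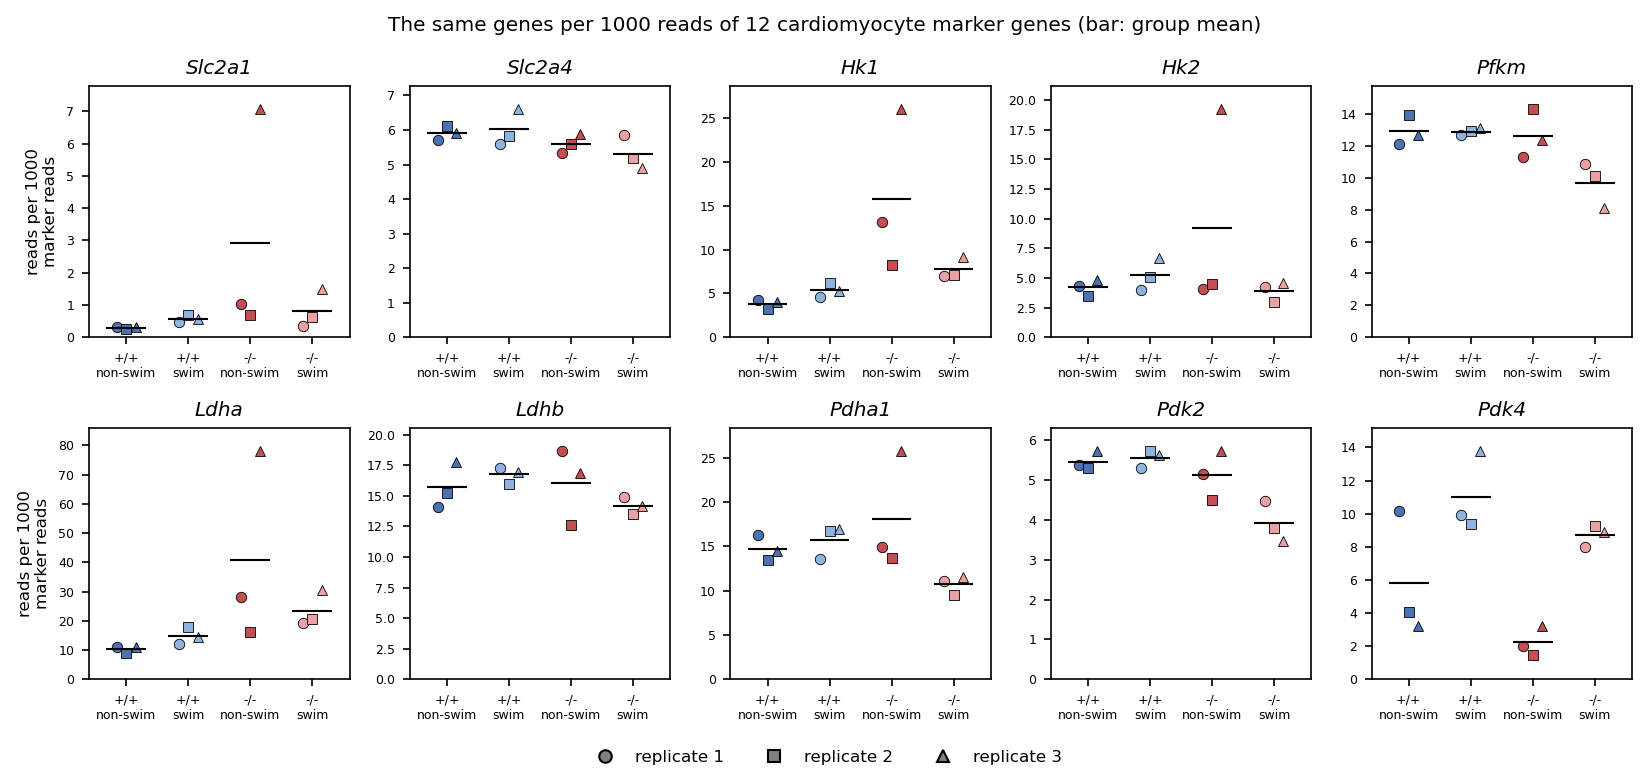
Reads of each gene per 1000 reads of 12 cardiomyocyte marker genes of the same library, on an axis from 0, with 3 libraries per group and a bar at the group mean. Slc2a4, Pfkm, Ldhb and Pdk2 stay in overlapping ranges in both non-swim groups, Slc2a1, Hk1 and Ldha are higher in Des-/- non-swim, and for Pdk4 the highest Des-/- non-swim point (3.25) just reaches the lowest Des+/+ non-swim point (3.23).

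Per kb of exon, the order of the levels also differed. In Des+/+ non-swim libraries Ldhb led at 818 ± 209 CPM per kb (SD, n = 3), ahead of Pfkm at 320.1 ± 104, Pdha1 at 318 ± 51.7 and Ldha at 251 ± 31.2, the last 3 lying within their spread of each other. Pdk2 at 141 ± 31.9, Slc2a4 at 140.0 ± 39.5 and Pdk4 at 128 ± 62.6 formed a level that could not be ordered, and Hk2 at 56.3 ± 6.83, Hk1 at 35.7 ± 3.04 and Slc2a1 at 6.85 ± 0.952 followed apart from each other. In Des-/- non-swim libraries Ldhb at 173 ± 87.4 and Ldha at 153 ± 16.1 CPM per kb could not be ordered, nor could Slc2a4 at 28.9 ± 19.2, Pdk2 at 27.7 ± 15.5, Hk1 at 25.5 ± 3.91 and Hk2 at 19.1 ± 7.06. Pdk4 had dropped to 9.53 ± 3.08 CPM per kb, next to Slc2a1 at 8.42 ± 5.32.

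The balance within each pair of alternative genes was compared as a ratio inside each library, which no scaling between libraries touches. Such a ratio still depends on the mix of cells in the library, whose part was not tested. The Ldha to Ldhb ratio of reads per kb was 0.279 to 0.369 in Des+/+ non-swim and 0.614 to 2.2 in Des-/- non-swim libraries, and 0.328 to 0.536 and 0.612 to 1.02 after swimming. Every Des-/- library was above every Des+/+ library. The highest, at 2.2, was replicate 3 of Des-/- non-swim, which also had the lowest cardiomyocyte marker sum and the highest fibroblast and macrophage sums. Averaged over both swimming states, the log2 ratio was 1.28 higher in Des-/- (two-sided exact permutation over 400 arrangements, p = 0.005, the smallest they can give, and 0.02 after adjustment over 8 tests).

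The hexokinase balance differed too. The Hk1 to Hk2 ratio was 0.574 to 0.691 in Des+/+ non-swim and 0.948 to 2.28 in Des-/- non-swim libraries, and 0.558 to 0.862 and 1.16 to 1.68 after swimming. Again no library overlapped between genotypes, with a log2 difference of 1.04 (exact permutation p = 0.005, adjusted p = 0.02). For this pair replicate 3 of Des-/- non-swim was the lowest Des-/- library, at 0.948. The Slc2a1 to Slc2a4 ratio rose by 1.54 on the log2 scale on average, but its values ran from 0.121 to 1.19 in Des-/- non-swim libraries, and it did not pass the test (exact permutation p = 0.03, adjusted p = 0.06). It passed without replicate 1 of Des-/- swim, at 1.81 (adjusted p = 0.0133), and without both Des-/- replicate 3 libraries it was 0.74 (adjusted p = 0.2).

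**Figure D3:**
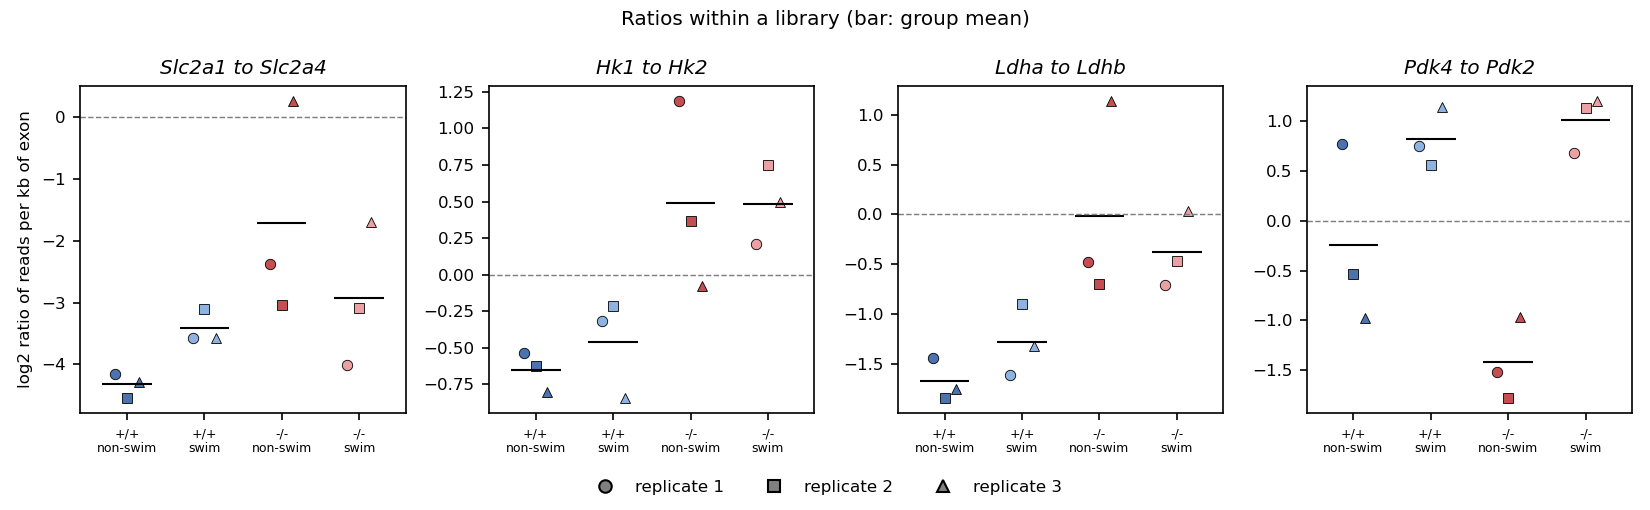
Log2 ratio of reads per kb of exon within each library for 4 pairs of genes, with 3 libraries per group, a bar at the group mean and a dashed line at equal levels. In the Hk1 to Hk2 and Ldha to Ldhb panels all 6 Des-/- points lie above all 6 Des+/+ points. In the Pdk4 to Pdk2 panel the mean of Des-/- non-swim is lowest (-1.42). Its highest point (-0.968) still lies just above the lowest Des+/+ non-swim point (-0.971).

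After swimming, 2 of the 10 genes were called, both lower in Des-/-, where 10.6% of all genes were called, 5.57% as lower and 5.01% as higher. They were Hk2, at 42.1% of the Des+/+ level (log2 difference -1.25, SE 0.30, edgeR adjusted p = 0.0275), and Pdha1, at 39% (log2 difference -1.36, SE 0.30, adjusted p = 0.0203). Both calls were lost in each of 4 fits, without replicate 1 or 3 of Des+/+ swim (adjusted p = 0.059 and 0.106 for Hk2, 0.0553 and 0.0747 for Pdha1) and without replicate 2 or 3 of Des-/- swim (0.0771 and 0.0762 for Hk2, 0.0536 and 0.0588 for Pdha1). Without replicate 3 of Des-/- non-swim, 4 members were called, with Pdk2 (adjusted p = 0.0185) and Ldhb (0.0291) added. In that fit lower calls also rose among 80 other genes of the pathway, from 18 to 31, so the rise was not particular to the members. Scaled to the cardiomyocyte markers, none was called, with Hk2 at -0.42 and Pdha1 at -0.56 on the log2 scale. Reads in genes were 7425291 to 9440967 in Des+/+ swim and 4320819 to 6521963 in Des-/- swim libraries, without overlap. The share of counted entries outside the gene rows was 63.6% to 68.4% and 72.3% to 78.8%. The part of depth and of this share in the members' differences was not tested.

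Another 5 genes, Slc2a4, Pfkm, Ldhb, Pdk2 and Pdk4, were lower in Des-/- swim than in Des+/+ swim libraries without overlap but did not pass the test, with log2 differences from -1.28 to -0.97. In all, 7 of 10 members lay lower without overlap, as did 18.6% of all genes. Pdk4 was at 582, 327 and 663 CPM in Des+/+ swim and at 243, 289.8 and 169 CPM in Des-/- swim libraries, a log2 difference of -1.16 (SE 0.39, adjusted p = 0.075). Ldha overlapped between genotypes, at 702, 629 and 688 against 584, 643 and 582 CPM (log2 difference -0.16, 95% interval -0.49 to 0.18), as did Hk1 and Slc2a1.

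**Figure D4:**
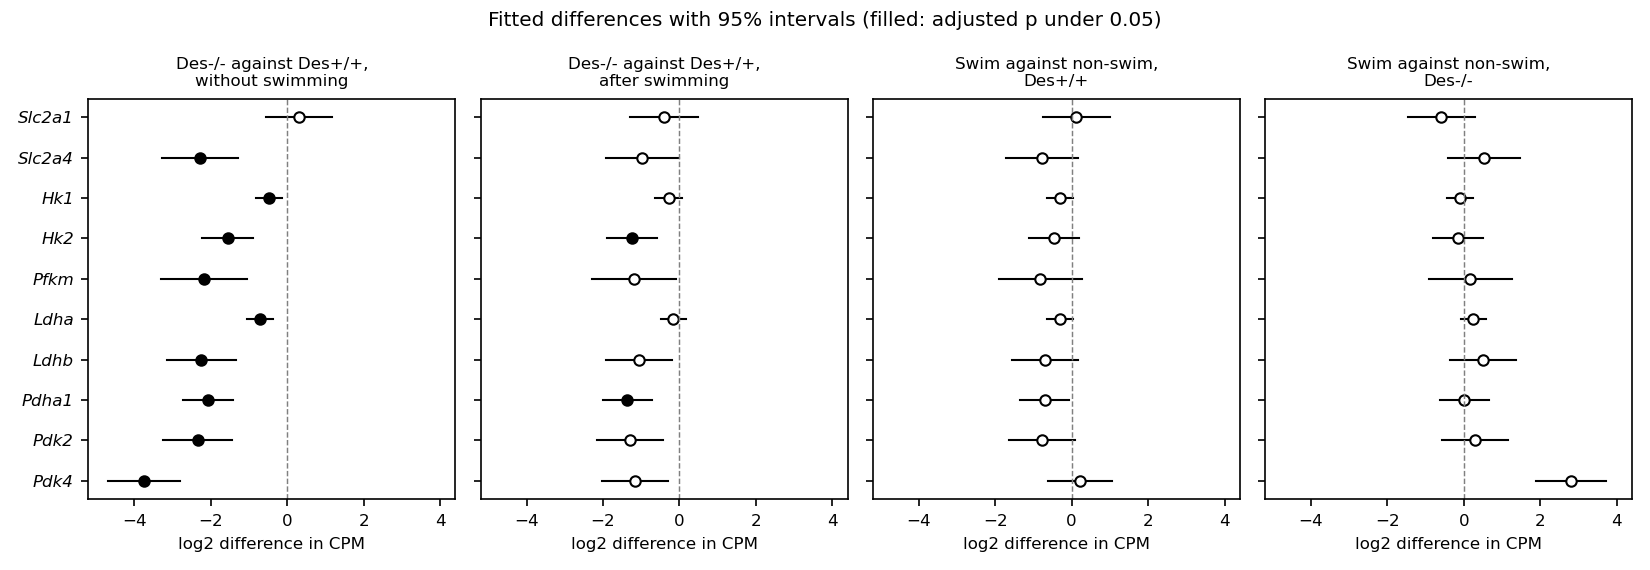
Fitted log2 difference in CPM for each gene in 4 comparisons of 3 against 3 libraries, with its 95% interval; filled points passed an adjusted p under 0.05. Filled points appear for 9 genes without swimming and 2 after swimming, and Pdk4 stands furthest from 0 both in the first panel (-3.74) and in the last (2.81).

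Swimming was then followed within each genotype. In Des+/+ cardiomyocytes edgeR called 0 of 10 members and 0.0912% of all genes. At an unadjusted p under 0.05, 1 member was lower and 0 higher, against 12% and 8.46% of all genes. DESeq2 called 0 members, against 2.49% of all genes as lower and 4.04% as higher. The values of Slc2a4, Hk1, Pfkm, Ldha, Pdha1 and Pdk2 were lower in all swim than in all non-swim libraries, 6 of 10 members, where 18.7% of all genes lay lower without overlap, with log2 differences from -0.81 to -0.30. The cardiomyocyte marker sum was lower there too, with a median log2 difference of -0.79 over the 12 markers, none called. The erythroid sum was 180 to 547 CPM in non-swim and 1394 to 2180 in swim libraries and the endothelial sum 6391 to 7924 and 8403 to 11986, in both without overlap and with no marker called. The share of counted entries outside the gene rows was 53.5% to 59.5% and 63.6% to 68.4%. Their part in the members' values was not tested. Pdha1 had the smallest p of the members (log2 difference -0.70, SE 0.29, adjusted p = 0.209). Pdk4 did not share this direction, at 0.23 (95% interval -0.61 to 1.07), a value that was -0.08 without replicate 3 of Des+/+ non-swim.

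In Des-/- cardiomyocytes swimming went with a 7-fold level of Pdk4, the largest difference of any member between swimming states. It lay at 32.2, 44.8 and 23.4 CPM in non-swim and at 243, 289.8 and 169 CPM in swim libraries. The lowest swim library was well above the highest non-swim library. The log2 difference was 2.81 (SE 0.42, 95% interval 1.90 to 3.72) with an unadjusted p of 2.48e-05 and an edgeR adjusted p = 0.0606, so that 0 of 10 members were called, against 0.0228% of all genes. DESeq2 called it (adjusted p = 1.96e-09), as did edgeR with no filter on low counts (adjusted p = 0.0287), without replicate 3 of Des+/+ non-swim (0.0439), without replicate 3 of Des-/- swim (0.0259) and without both Des-/- replicate 3 libraries (0.022). Between the same groups the share of counted entries outside the gene rows went from 52.4% to 68.3% without swimming to 72.3% to 78.8% after it, without overlap, while the erythroid sum was 1471 to 4586 and 491 to 2921 CPM and the endothelial sum 5491 to 9088 and 8724 to 13030 CPM, none of these markers being called. All 12 cardiomyocyte markers were higher after swimming (median log2 difference 0.57), and all 10 fibroblast and all 10 macrophage markers lower (-0.93 and -1.53), with none called. The part of all of these in the difference was not tested.

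Per 1000 cardiomyocyte marker reads, Pdk4 was at 1.45 to 3.25 in Des-/- non-swim and at 7.99 to 9.26 in Des-/- swim libraries, so that it stood apart on this scale as well, with a log2 difference of 1.97 in the marker-scaled fit (adjusted p = 0.16). The other inhibitory kinase did not move alongside. Pdk2 was at 83.0, 139 and 41.2 CPM in Des-/- non-swim and at 136, 119 and 66.0 CPM in Des-/- swim libraries, which overlap (log2 difference 0.29, adjusted p = 0.735). The Pdk4 to Pdk2 ratio was 0.292 to 0.511 in Des-/- non-swim and 1.61 to 2.31 in Des-/- swim libraries, and 0.51 to 1.70 and 1.48 to 2.2 in Des+/+. Over both genotypes the log2 ratio was 1.75 higher after swimming (exact permutation p = 0.015, adjusted p = 0.04), with a difference of 2.43 in Des-/- and 1.06 in Des+/+. It did not pass without replicate 3 of Des+/+ swim (1.67, adjusted p = 0.0533) or without both Des-/- replicate 3 libraries (1.81, adjusted p = 0.133). The genotype difference of this ratio, averaged over both swimming states, was -0.49 and did not pass (exact permutation p = 0.245, adjusted p = 0.392).

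Ldha was the other member whose Des-/- groups did not overlap, at 456, 505 and 562 CPM without and 584, 643 and 582 CPM after swimming, so that 2 of 10 members lay higher without overlap, as did 10.4% of all genes. Its log2 difference was 0.25 (SE 0.15, adjusted p = 0.417). The remaining 8 members were between -0.59 (Slc2a1) and 0.53 (Slc2a4) on the log2 scale. Slc2a1 lay at 16.6, 21.1 and 50.9 CPM without and at 11.1, 19.2 and 28.8 CPM after swimming in replicates 1, 2 and 3. It was lower after swimming at each replicate number, though nothing in the labels says that these numbers pair the libraries. With the replicate number as a block its log2 difference was -0.55, and it was not called (edgeR adjusted p = 0.412). The Slc2a1 to Slc2a4 ratio went from 0.192 to 0.0622, from 0.121 to 0.118 and from 1.19 to 0.307 for replicates 1, 2 and 3, lower each time but by little in replicate 2. The interaction test, which asks whether the swimming effect differed between genotypes, called 0 of 10 members and 0% of all genes (edgeR). At an unadjusted p under 0.05, 2 members were higher, Pdk4 and Ldha, as were 10.1% of all genes. A test that called no gene does not show that the swimming effect was the same in both genotypes. For Pdk4 the interaction was 2.58 on the log2 scale (SE 0.56, edgeR adjusted p = 0.199). DESeq2 called that 1 member (adjusted p = 0.0018) and 1.59% of all genes as higher.

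The rest of the pathway was taken from lists of 84 other genes, of which 83 were in the tables and 80 were tested. Without swimming 52 of them were lower in Des-/- and 6 higher, with a median log2 difference of -1.12, against 0.04 over all genes, where 18% of all genes were called lower and 14% higher. Of 21 tested glycolysis genes 13 were lower and 3 higher. The most abundant were Aldoa, the aldolase of muscle (log2 difference -1.51, adjusted p = 0.00112), and Eno3, the muscle enolase (-2.37, adjusted p = 0.00233). Of 7 transport genes 2 were lower, namely Bsg (-1.20, adjusted p = 0.00112), the chaperone of lactate carriers, and Slc16a1 (-1.66, adjusted p = 0.00258), the lactate carrier MCT1.

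Around pyruvate dehydrogenase 10 of 11 genes were lower, among them Pdhb (-1.77, adjusted p = 0.00204), the partner of Pdha1, and Dld (-1.81, adjusted p = 8.95e-04), the E3 subunit. Of 13 tested glycogen genes 12 were lower, such as the phosphorylases Pygm (-2.27, adjusted p = 0.00665) and Pygb (-1.92, adjusted p = 0.00593). Of 12 genes from the insulin signal to glucose transport 7 were lower, while its most abundant members, the glucose uptake brake Txnip (-0.62, adjusted p = 0.109) and the kinase Akt1 (-0.15, adjusted p = 0.375), did not pass. Of 16 regulators 8 were lower and 1 higher. Esrra, a nuclear receptor of energy genes, was lower (-1.56, adjusted p = 7.87e-04) and Hif1a, the oxygen-sensing factor, did not pass (0.20, adjusted p = 0.548).

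The 6 genes that were higher, named here after their values were seen, were Slc2a3 (1.14, adjusted p = 0.0447), Hk3 (4.58, adjusted p = 0.0127), Pfkp (0.46, adjusted p = 0.0425), Eno1 (0.78, adjusted p = 0.0479), Pdk3 (1.05, adjusted p = 0.0225) and Myc (2.64, adjusted p = 0.0463). They are the GLUT3 transporter, the hexokinase of blood cells, the platelet phosphofructokinase, the widespread enolase, another pyruvate dehydrogenase kinase and a growth factor-driven transcription factor. Hk3 was at 80.0 CPM in replicate 3 of Des-/- non-swim and at 0.642 to 5.54 CPM in the other 11 libraries. Myc was at 80.5 CPM in that library, at 46.9 in replicate 3 of Des-/- swim and at 3.42 to 11.3 CPM in the other 10. Without replicate 3 of Des-/- non-swim 5 of the 6 calls were lost, with Hk3 at 1.68 (edgeR adjusted p = 0.0799), Pfkp at 0.31 (0.166), Eno1 at 0.38 (0.214), Pdk3 at 0.85 (0.0862) and Myc at 0.84 (0.406). Slc2a3 was at 0.51 (adjusted p = 0.235) without replicate 2 of Des-/- non-swim. Over the 12 fits that left out 1 library, each of these calls was lost in 2 (Hk3) to 9 (Pfkp) of them. Gapdh, a standard glycolytic enzyme with many near-identical copies in the genome, was counted at 17.0 to 56.1 CPM, against 858 to 3354 CPM for Aldoa, and its level is uncertain. Whether reads shared with the copies lower it was not tested.

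After swimming 18 of the 80 genes were lower in Des-/- and 0 higher by edgeR, where 5.57% of all genes were called lower and 5.01% higher. Leaving out 1 library gave 0 to 31 lower and 0 higher. None was called without replicate 3 of Des+/+ swim, 7 without replicate 1 of Des+/+ swim or replicate 1 or 2 of Des-/- swim, 9 without replicate 3 of Des-/- swim, and 31 without replicate 3 of Des-/- non-swim. The count was 6 of 11 around pyruvate dehydrogenase, including Dld (-1.36, adjusted p = 0.0124), 4 of 12 in insulin signalling, 4 of 16 regulators, 2 of 21 in glycolysis, 1 of 13 in glycogen and 1 of 7 in transport, which was Slc16a1 (-1.19, adjusted p = 0.0328). At an unadjusted p under 0.05 the counts were 38 lower and 1 higher, against 15.8% and 14.7% of all genes, and DESeq2 called 31 lower and 0 higher, against 8.31% and 7.57%. For swimming itself edgeR called 0 of the 80 in either genotype. In Des+/+ 22 were lower and 2 higher at an unadjusted p under 0.05, against 12% and 8.46% of all genes, with 8 lower and 0 higher by DESeq2, against 2.49% and 4.04%. In Des-/- 6 were lower and 14 higher at an unadjusted p under 0.05, against 8.96% and 7.77% of all genes, with 1 lower and 3 higher by DESeq2, against 0.977% and 1.47%.

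The genes most like each member were those with the smallest root mean square difference between log2 CPM profiles, each centred on its mean over the 12 libraries. For Pdk4 these were Ppargc1a, the coactivator PGC-1 alpha, at 0.70, and Rasl10b at 0.75, against a spread of Pdk4 itself of 1.63. Ppargc1a lay at 65.2 to 68.0 CPM in Des+/+ non-swim, 105 to 262 in Des+/+ swim, 4.37 to 25.9 in Des-/- non-swim and 51.2 to 98.1 in Des-/- swim libraries. Its log2 differences were -2.26 between genotypes without swimming (edgeR adjusted p = 0.00823), -1.19 after swimming (0.132) and 2.39 for swimming in Des-/- (0.164). For swimming in Des+/+ the genes parted, with Ppargc1a at 1.33 (edgeR adjusted p = 0.176) and Pdk4 at 0.23 (0.778). The closest pair of members was Slc2a4 and Pfkm at 0.15.

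The other members had closer companions. Pfkm was nearest to Pygm at 0.10 and to Slc2a4 at 0.15, Slc2a4 to Eef1a2 at 0.10 and Coq8a at 0.11, and Ldhb to Rtn2 at 0.13 and Eef1a2 at 0.14. Pdha1 was nearest to the citric acid cycle genes Fh1 and Cs, both at 0.09, and Pdk2 to Fam174b and Mdh1 at 0.105 and 0.125. Ldha was nearest to Nploc4 and Psmb2 at 0.075 and 0.10, Hk1 to Cdk16 and Rhot1 at 0.08 each, Hk2 to Bckdhb and Etfrf1 at 0.23 and 0.24, and Slc2a1 to Cerk and Npc1 at 0.21 and 0.25. These distances describe 12 libraries that share their groups and their cell mix.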

How the data were processed

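Poly-A RNA of adult cardiomyocytes was sequenced as single-end reads in 12 libraries. According to the study's methods and the submitters' processing notes, the authors aligned reads to GRCm38 with HISAT2 2.2.1 and SAMtools 1.13, and counted them per gene with HTSeq-count in reverse-strand mode. The deposited values were raw counts, not normalised. Between 52.4% and 78.8% of the counted entries lay outside the gene rows and were left out, in ranges of 53.5% to 59.5% in Des+/+ non-swim, 63.6% to 68.4% in Des+/+ swim, 52.4% to 68.3% in Des-/- non-swim and 72.3% to 78.8% in Des-/- swim. The labels name a library kit without strand and the methods a directional one, so Pfkm and Pdha1, which overlap Senp1 and Map3k15 on the other strand, depend on that setting. Library depth ranged from 4320819 to 12072443 reads in genes. Printed 95% intervals are approximate intervals for a difference of group means in the edgeR fit. Their SE was derived from the F statistic, which rests on the spread between libraries.

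Groups came from the sample labels. Counts were filtered with filterByExpr (13158 genes), scaled by TMM and fitted with 4 group means in edgeR 4.0.16 (R 4.3.3); quasi-likelihood p-values were adjusted by Benjamini-Hochberg over all genes, with calls at 0.05. Nothing in the labels says that same-numbered libraries share animals. Their deviations from the group means correlated at 0.37, 0.32 and 0.60 for swimming in Des-/-. In the other comparisons the correlations ran from -0.41 to 0.134. These correlations come from the same values and do not show that the libraries were paired. Replicate 3 also had the highest fibroblast sum in both Des-/- groups. Spread between libraries is that between pools of cells. Replicates were not identical, with chi-square per degree of freedom of 9.5 or more.

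Ratios used (count + 0.5) per kb of exon (GENCODE M21) and exact permutation within the other factor. DESeq2 1.42.0 and, for the interaction, limma 3.58.1 (voom) served as alternatives, as did other scalings, filters, fits of the compared libraries alone, and leaving out libraries. The procedures were tested on simulated data. Members and gene lists were chosen with earlier results of these data known. Named were all members, Des, the 2 most abundant genes per kb of each further list and the 2 genes most like each member. Fitting without both Des-/- replicate 3 libraries, and scaling to the geometric mean of the cardiomyocyte markers, were chosen after seeing the data.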

Additional observations from a re-analysis of the deposited data

Results flagged for a closer look

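Ldha stood out because its 3 Des+/+ swim libraries were all lower and its 3 Des-/- swim libraries all higher than the non-swim libraries of the same genotype. The interaction was 0.55 on the log2 scale (SE 0.22, 95% interval 0.08 to 1.03) with an edgeR adjusted p = 0.25, so that the difference between genotypes did not pass the test. Scaled to the cardiomyocyte markers it was -1.32.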

How the results depend on the processing

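Scaling to the summed cardiomyocyte markers left 4 members called for genotype without swimming, 3 of them higher, and 0 after swimming; the geometric mean of the same markers also gave 4 and 0. This scaling shifted the median log2 difference of all genes by 2.60, 0.82, 0.81, -0.97 and -1.79 for genotype (at rest, then after swimming), swimming (Des+/+, then Des-/-) and their interaction, and upper-quartile scaling shifted the first by 0.10. Under it the sign of the log2 difference turned for genotype without swimming Hk1 2.05, Hk2 1.14, Ldha 1.98, Ldhb 0.030 and Pdha1 0.30. It also turned for genotype after swimming Slc2a1 0.53, Hk1 0.53 and Ldha 0.67, and for swimming in Des+/+ Slc2a4 0.024, Hk1 0.49, Hk2 0.32, Ldha 0.51, Ldhb 0.092, Pdha1 0.094 and Pdk2 0.023. It turned for swimming in Des-/- Slc2a4 -0.076, Pfkm -0.38, Ldha -0.80, Ldhb -0.18, Pdha1 -0.76 and Pdk2 -0.39, and for the interaction Slc2a4 -0.10, Hk1 -1.52, Hk2 -1.56, Pfkm -0.38, Ldha -1.32, Ldhb -0.27, Pdha1 -0.85 and Pdk2 -0.41. DESeq2 called 5 members for genotype after swimming, all lower, as were 8.31% of all genes. It called 1 for swimming in Des-/- and 1 for the interaction, both Pdk4 and higher, as were 1.47% and 1.59% of all genes. In edgeR an adjusted p under 0.1 gave 5 members for genotype after swimming and 1 for swimming in Des-/-, and no filter also gave 1 for the latter. Where no share of all genes stands beside a member count in this section, the count describes only how stable the calls were. For Pdha1 and swimming in Des-/- the value was -0.007 with no filter. Without both Des-/- replicate 3 libraries 4 members were called for genotype after swimming and 1 for swimming in Des-/-; Slc2a1 without swimming was -0.28, swimming in Des-/- gave Hk2 0.14 and Pdha1 -0.047, the swimming difference was 0.038 for the Slc2a1 to Slc2a4 and -0.050 for the Hk1 to Hk2 log2 ratio, and the Pdk4 to Pdk2 swimming difference was 1.81, no longer past the threshold.

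Leaving out 1 library at a time gave 8 to 9 members called for genotype without swimming, 0 to 4 after swimming, 0 to 1 for swimming in Des-/- and 0 otherwise. The Slc2a1 to Slc2a4 ratio ranged from 1.05 to 1.87 for genotype and from -0.48 to 0.34 for swimming, Hk1 to Hk2 from -0.047 to 0.27 and Ldha to Ldhb from -0.16 to 0.30 for swimming, and Pdk4 to Pdk2 from 1.56 to 2.00. The sign also turned for genotype without swimming (Slc2a1 -0.35 to 0.58), swimming in Des+/+ (Pdk4 -0.078 to 0.65), swimming in Des-/- (Slc2a1 -0.98 to 0.071, Hk1 -0.19 to 0.023, Hk2 -0.43 to 0.028, Pfkm -0.21 to 0.98, Pdha1 -0.21 to 0.42, Pdk2 -0.038 to 0.79). The genotype differences of the Hk1 to Hk2 and Ldha to Ldhb ratios passed in all 12. The replicate block changed no call for swimming in Des-/-, with 0 members called and Pdk4 at 2.81 (edgeR adjusted p = 0.0629). In the other comparisons it gave 9, 3, 0 and 0 members. Whether the replicate numbers pair libraries in any comparison is not known. The causes were not tested. The smallest count of a member was 78, and each group held 3 pools.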
